A study of Homo sapiens with 9 samples.

Results

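The mitochondrial genome transcripts are the 37 genes whose symbol starts with MT- in the annotation, out of 63677 gene identifiers in the count files. They comprise 13 mRNAs, 2 rRNAs and 22 tRNAs, and the rule that chose them uses no measured value. They were counted in HuH-7, a human hepatocellular carcinoma line, in 9 conditions with 1 library each. The treated cultures received 10 mM acetaminophen with exosomes, 10 mM acetaminophen with 2 mM caffeine, 10 mM acetaminophen alone, or the exosomes alone. Others received 2 mM caffeine alone, 5 µM arsenic with 5 µM copper, 5 µM arsenic alone or 15 µM arsenic. The control was untreated. The labels give the exosome dose as that from 1 ml of serum per set number of cells. Every culture was the same line with no other labelled change, and the sources used here give neither exposure times nor the arsenic and copper compounds nor the origin of the serum. Total RNA was depleted of ribosomal RNA before Ion Torrent libraries were made, and no selection for poly(A) is described.

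Human mitochondrial DNA is a small circle transcribed from both strands as long precursors. The tRNAs lie between most of the mRNAs and rRNAs, and their excision releases the mature transcripts. The mRNAs encode core subunits of the respiratory chain and ATP synthase, the rRNAs build the mitochondrial ribosome, and the tRNAs decode its codons. All of the proteins that copy, cut and translate this genome are encoded in the nucleus. Hepatocytes are rich in mitochondria, and mitochondrial injury is a known part of acetaminophen toxicity in liver.

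The libraries held 658725 counts on genes with acetaminophen plus exosomes up to 8227906 with caffeine, so that 3 counts, taken as the detection floor, corresponded to 4.55 and 0.365 CPM (counts scaled to the same total for every library). All 6 hepatocyte markers examined were counted in every library (ALB, the albumin gene, 3111 to 14125 CPM), and of 7 blood cell markers none passed 3.04 CPM (PTPRC with acetaminophen plus exosomes), with HBA2, PPBP and PF4 at 0. Small nucleolar RNAs took 35.5% of gene counts at 5 µM arsenic and 11.5% with acetaminophen, against 3.41% to 8.35% elsewhere; both libraries are given apart below. Levels below are CPM after TMM scaling, which rescales library sizes so that most genes match between libraries. In bulk RNA, fewer mitochondrial genomes per cell and less RNA per genome cannot be told apart.

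The sequences of 8 of the 22 tRNAs are shown first. No fixed rule chose them, and others that stand out below, such as MT-TQ, MT-TS1 and MT-TY, are not shown. The anticodon is in capitals, the sequences are taken from the GENCODE 29 transcripts (GRCh38, chromosome MT), and each gene is a single exon. MT-TM (tRNA for methionine, + strand, MT:4402-4469) and MT-TS2 (serine, +, MT:12207-12265, which lacks one of the usual arms) come first, then MT-TN (asparagine, −, MT:5657-5729), MT-TC (cysteine, −, MT:5761-5826), MT-TK (lysine, +, MT:8295-8364), MT-TG (glycine, +, MT:9991-10058), MT-TV (valine, +, MT:1602-1670) and MT-TE (glutamate, −, MT:14674-14742).
MT-TM: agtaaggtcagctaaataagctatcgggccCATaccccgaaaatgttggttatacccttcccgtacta
MT-TS2: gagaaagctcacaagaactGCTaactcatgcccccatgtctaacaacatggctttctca
MT-TN: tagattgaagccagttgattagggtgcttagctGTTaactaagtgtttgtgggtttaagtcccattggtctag
MT-TC: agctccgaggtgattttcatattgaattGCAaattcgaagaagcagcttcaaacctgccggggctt
MT-TK: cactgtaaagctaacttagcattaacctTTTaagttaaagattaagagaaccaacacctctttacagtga
MT-TG: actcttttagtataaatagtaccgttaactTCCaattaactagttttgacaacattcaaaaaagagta
MT-TV: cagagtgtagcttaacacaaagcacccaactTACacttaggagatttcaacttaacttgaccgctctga
MT-TE: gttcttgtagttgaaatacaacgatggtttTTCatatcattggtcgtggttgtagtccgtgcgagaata

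Some genes share bases, and reads that match more than 1 gene are set aside as ambiguous in the count files. MT-ATP8 and MT-ATP6 share 46 bases (MT:8527-8572), shown with the start codon of MT-ATP6 and the stop codon of MT-ATP8 in capitals. The last 40 bases of MT-ND4L are shown (MT:10727-10766), with the 7 bases it shares with MT-ND4 in capitals. The ratios within these pairs of genes are given further on.
MT-ATP8 and MT-ATP6: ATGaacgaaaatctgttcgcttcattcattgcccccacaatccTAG
MT-ND4L and MT-ND4: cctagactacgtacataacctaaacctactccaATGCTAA

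The nuclear genome carries copies of mitochondrial DNA, which compete for reads of the members. Of 402 annotated copies 138 had a count, 2409 in all over the 9 libraries. The 3 with most counts were MTND2P28 with 842, MTATP6P1 with 573 and MTND4P12 with 196. Copies made up 28.1% of the counts of MT-ND2 and its copies together, 21.7% for MT-ATP6, 10.0% for MT-ND6 and 6.68% for MT-ND1, and at most 1.79% for each of the other mRNAs and MT-RNR2. No copy of MT-RNR1 was matched, and copies of tRNAs were not among the names searched, so these members have no such value. Non-unique alignments took 23% of reads with acetaminophen up to 53.3% with acetaminophen plus exosomes, and were not assigned to genes. Of the 50-base windows of MT-CO1, 49.5% also occur in a nuclear transcript, as do 46.7% of those of MT-ATP6 and 43.6% of those of MT-ND2, but none of those of MT-ND3, MT-ND4L, MT-RNR1 or any tRNA. By this measure, levels of MT-CO1, MT-ATP6 and MT-ND2 are less certain than those of MT-ND4L. Only annotated nuclear transcripts were searched, so copies elsewhere in the nuclear genome, of tRNAs among others, would be missed. The certainty of the tRNA levels can therefore not be ranked against that of the mRNAs. Shown are the 100-base stretches with most differences, bases 423 to 522 of MT-ND2 (MT:4470-5511) and its copy on chromosome 1 (chr1:629640-630683, 17 differences over 1042 bases) and bases 93 to 192 of MT-ATP6 (MT:8527-9207) and its copy (chr1:633696-634376, 10 differences over 681 bases), all + strand, GRCh38, with differing bases in capitals.
MT-ND2: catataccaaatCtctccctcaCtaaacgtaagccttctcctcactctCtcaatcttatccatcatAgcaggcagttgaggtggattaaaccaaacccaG
MTND2P28: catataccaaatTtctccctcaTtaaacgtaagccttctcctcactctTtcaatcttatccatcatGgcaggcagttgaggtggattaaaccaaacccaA
MT-ATP6: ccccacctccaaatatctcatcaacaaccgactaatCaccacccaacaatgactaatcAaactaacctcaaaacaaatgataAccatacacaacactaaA
MTATP6P1: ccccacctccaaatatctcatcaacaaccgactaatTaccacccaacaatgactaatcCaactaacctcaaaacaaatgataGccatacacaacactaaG

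The 37 genes together took 0.752% of gene counts at 15 µM arsenic up to 3.21% with acetaminophen plus exosomes, and 2.28% in the control. The 13 mRNAs took 0.394% with acetaminophen plus exosomes, 0.642 with acetaminophen plus caffeine, 0.321 with acetaminophen, 0.562 with exosomes, 0.563 with caffeine, 0.434 with arsenic plus copper, 0.609 in the control, 0.383 at 5 µM arsenic and 0.247 at 15 µM arsenic. The mRNA share was highest with acetaminophen plus caffeine, then in the control, and lowest at 15 µM arsenic. The 2 rRNAs took 2.48% with acetaminophen plus exosomes, 1.33 with acetaminophen plus caffeine, 1.03 with acetaminophen, 1.86 with exosomes, 0.873 with caffeine, 0.422 with arsenic plus copper, 1.53 in the control, 0.509 at 5 µM arsenic and 0.474 at 15 µM arsenic, which is what ribosomal depletion left of them, and the sources used here do not say whether its probes cover them. All 3 arsenic libraries lay below the other 6 in rRNA share. The 22 tRNAs took 0.333% with acetaminophen plus exosomes, 0.0807 with acetaminophen plus caffeine, 0.0997 with acetaminophen, 0.144 with exosomes, 0.40 with caffeine, 0.050 with arsenic plus copper, 0.144 in the control, 0.0813 at 5 µM arsenic and 0.0317 at 15 µM arsenic. Caffeine and acetaminophen plus exosomes stood highest in tRNA share.

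**Figure D1:**
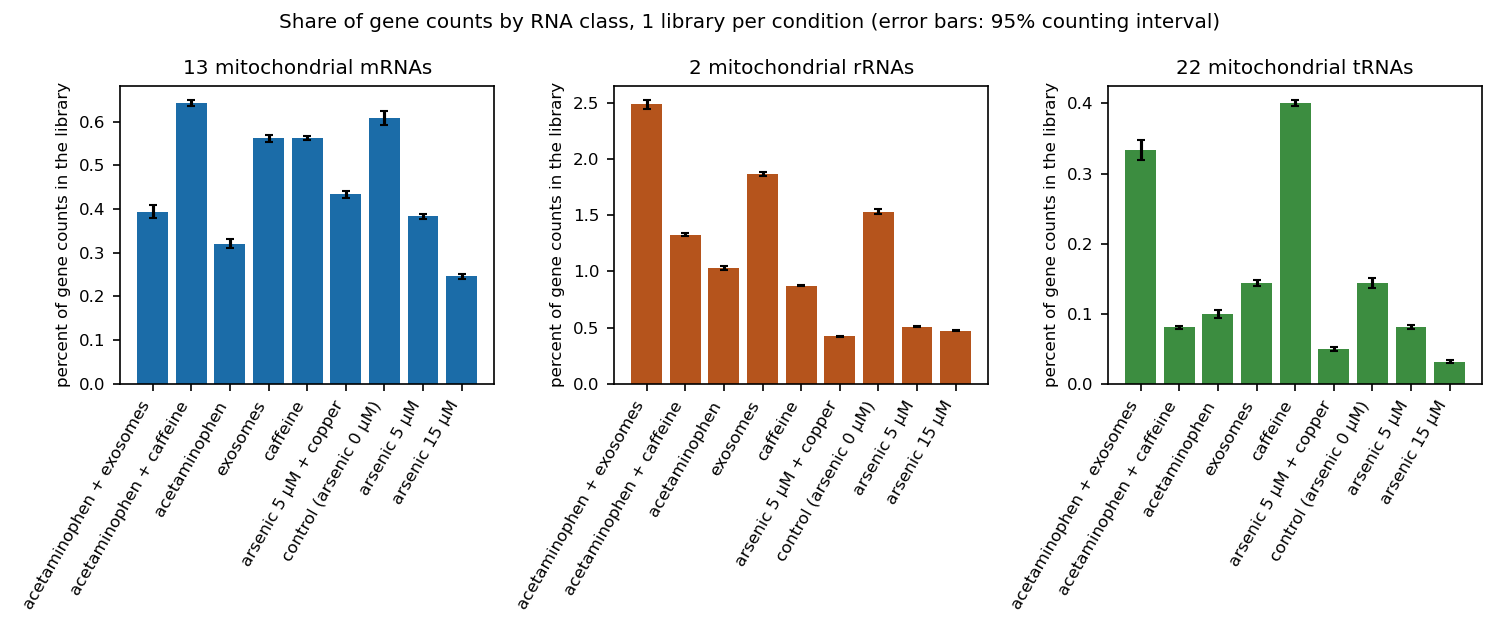
Share of gene counts (percent, y axis) taken by the 13 mRNAs, the 2 rRNAs and the 22 tRNAs of the mitochondrial genome in each of the 9 libraries (x axis), with 95% exact binomial intervals that cover counting error only. The rRNA share is at most 0.509% in the 3 arsenic libraries and at least 0.873% in the others. Gene counts include small nucleolar RNAs, which are 35.5% of them at 5 µM arsenic.

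Arsenic against no arsenic is the one comparison of shares with several libraries on each side, although the 6 libraries without arsenic carry other treatments. The rRNA share averaged 0.468 ± 0.0436% in the 3 arsenic libraries and 1.52 ± 0.591% in the other 6 (SD; exact two-sided permutation test, p = 0.0238, the smallest these 9 libraries allow, adjusted over the 3 classes 0.0714). The tRNA share averaged 0.0543 ± 0.0251% in arsenic and 0.20 ± 0.133% in the others (exact p = 0.0476, adjusted 0.0714), and the 2 sets overlapped at 5 µM arsenic. The mRNA share averaged 0.355 ± 0.0969% in arsenic and 0.515 ± 0.128% in the others (exact p = 0.119, adjusted 0.119). Small nucleolar RNAs are among these gene counts and took 35.5% of them at 5 µM arsenic. As shares of protein-coding and member counts, mRNAs averaged 0.528% in arsenic and 0.663% in the others (exact permutation p = 0.405, adjusted 0.405). By that measure the same test gave an adjusted p of 0.0714 for rRNAs and 0.107 for tRNAs. None of the 3 differences passed 0.05 after adjustment by either measure.

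Levels of different genes are compared per length, as CPM of all gene counts, without TMM, per kilobase of gene, by the median over the 9 libraries. MT-TS2 stood highest at 4841, then the rRNAs MT-RNR2 at 4782 and MT-RNR1 at 3332, then the tRNAs MT-TN at 1871, MT-TC at 1659 and MT-TM at 1454. The 3 subunits of cytochrome c oxidase led the mRNAs, MT-CO3 at 1373, MT-CO1 at 1265 and MT-CO2 at 1217. MT-TT at 41.9 and MT-ND6 at 4.49 stood lowest. Of the 36 pairs of neighbours in this order, 35 had overlapping ranges over the 9 libraries. The exception was MT-TT (23.8 to 189.7) above MT-ND6 (0.638 to 16.7). The ranges span different treatments, so their overlap does not settle the order of neighbours. Genes further apart in the order were not compared. All but MT-ND6 among the mRNAs are read in the direction of the + strand. Whether counting used the strand is not given, so reads of MT-ND6 and of precursors antisense to it cannot be told apart.

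**Figure D2:**
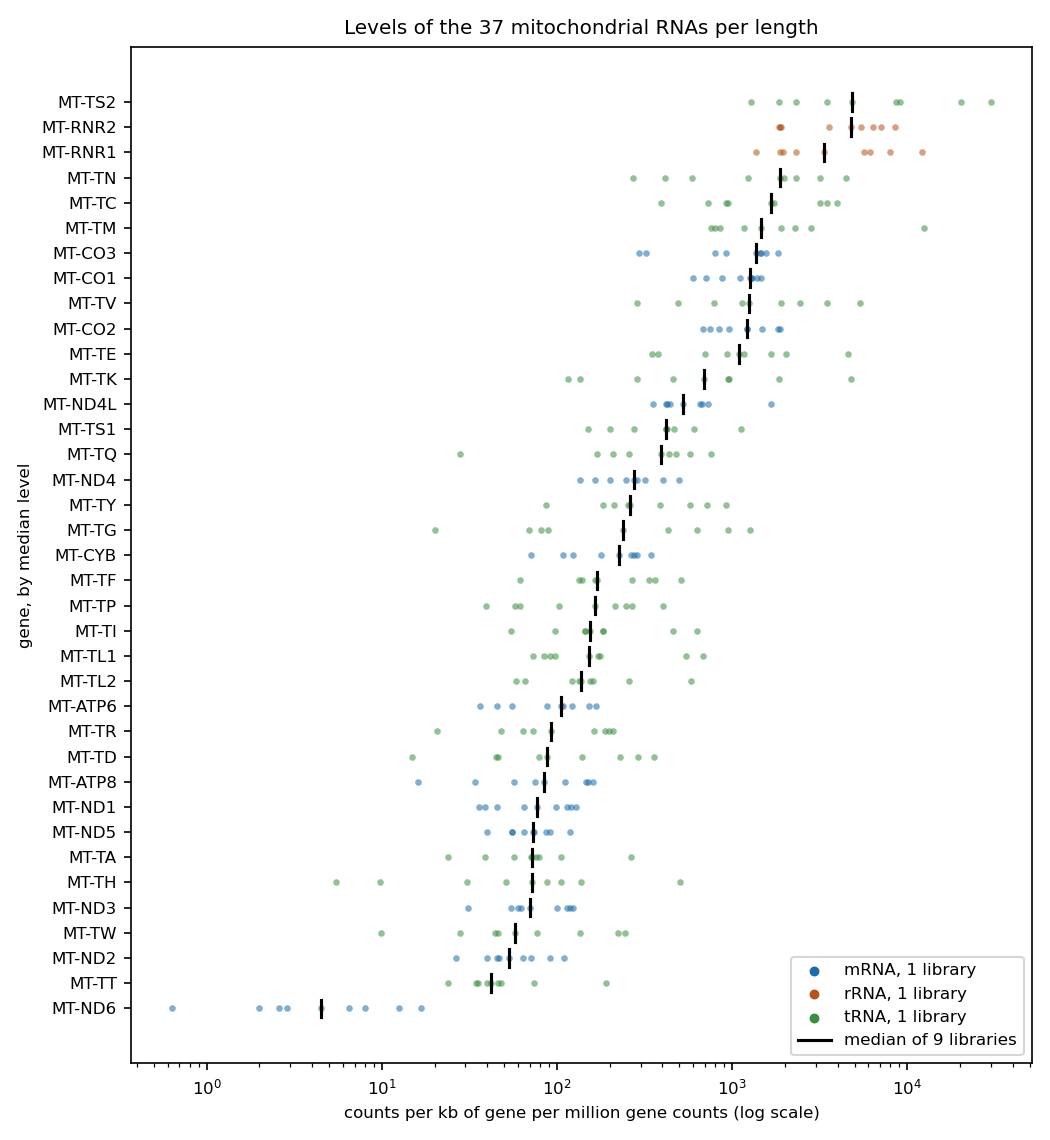
Level of each of the 37 genes per length (CPM per kilobase, log axis) in each of the 9 libraries, with genes ordered by their median. MT-TS2 has the highest median, 4841, and MT-ND6 the lowest, 4.49.

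Complex I, the NADH dehydrogenase, takes 7 subunits from this genome. MT-ND1 stood at 52.3 CPM with acetaminophen plus exosomes, 96.4 with acetaminophen plus caffeine, 33.1 with acetaminophen, 112 with exosomes, 105 with caffeine, 72.5 with arsenic plus copper, 105 in the control, 67.8 at 5 µM arsenic and 36.7 at 15 µM arsenic. It was low with acetaminophen and at 15 µM arsenic. MT-ND2 stood at 62.5 CPM with acetaminophen plus exosomes, 97.9 with acetaminophen plus caffeine, 37.3 with acetaminophen, 60.2 with exosomes, 109.8 with caffeine, 54.6 with arsenic plus copper, 44.5 in the control, 74.6 at 5 µM arsenic and 29.8 at 15 µM arsenic, highest with caffeine. MT-ND3 stood at 35.7 CPM with acetaminophen plus exosomes, 42 with acetaminophen plus caffeine, 16.9 with acetaminophen, 35.9 with exosomes, 33.5 with caffeine, 20.4 with arsenic plus copper, 22.3 in the control, 33.7 at 5 µM arsenic and 11.5 at 15 µM arsenic. Its lowest levels were again at 15 µM arsenic and with acetaminophen. MT-ND4 stood at 333 CPM with acetaminophen plus exosomes, 701 with acetaminophen plus caffeine, 204 with acetaminophen, 394 with exosomes, 535 with caffeine, 371 with arsenic plus copper, 315 in the control, 292 at 5 µM arsenic and 297 at 15 µM arsenic. Acetaminophen plus caffeine stood highest for MT-ND4. MT-ND4L stood at 105 CPM with acetaminophen plus exosomes, 204 with acetaminophen plus caffeine, 139 with acetaminophen, 195 with exosomes, 127 with caffeine, 124 with arsenic plus copper, 180.0 in the control, 770.1 at 5 µM arsenic and 113 at 15 µM arsenic. The library at 5 µM arsenic stood far above the other 8. MT-ND5 stood at 112 CPM with acetaminophen plus exosomes, 161 with acetaminophen plus caffeine, 89.4 with acetaminophen, 194 with exosomes, 159 with caffeine, 130.5 with arsenic plus copper, 108 in the control, 157 at 5 µM arsenic and 77.3 at 15 µM arsenic. It was highest with exosomes. MT-ND6, the only mRNA on the − strand, stood at 1.27 CPM with acetaminophen plus exosomes, 4.35 with acetaminophen plus caffeine, 2.11 with acetaminophen, 5.99 with exosomes, 8.45 with caffeine, 3.35 with arsenic plus copper, 0.968 in the control, 2.13 at 5 µM arsenic and 0.36 at 15 µM arsenic. These levels rest on 1 count in the control and 135 counts in all 9 libraries.

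MT-CYB, cytochrome b of complex III, stood at 217 CPM with acetaminophen plus exosomes, 405 with acetaminophen plus caffeine, 126 with acetaminophen, 273 with exosomes, 317 with caffeine, 199 with arsenic plus copper, 290.3 in the control, 193 at 5 µM arsenic and 87.4 at 15 µM arsenic. It was lowest at 15 µM arsenic and highest with acetaminophen plus caffeine. MT-CO1, the catalytic subunit of cytochrome c oxidase (complex IV), stood at 914 CPM with acetaminophen plus exosomes, 2323 with acetaminophen plus caffeine, 1206 with acetaminophen, 1795 with exosomes, 1939 with caffeine, 1686 with arsenic plus copper, 1964 in the control, 3055 at 5 µM arsenic and 992 at 15 µM arsenic. It was highest at 5 µM arsenic, where it made up 50.9% of mRNA counts. MT-CO2, the subunit that takes electrons from cytochrome c, stood at 427 CPM with acetaminophen plus exosomes, 1311 with acetaminophen plus caffeine, 417 with acetaminophen, 918 with exosomes, 804 with caffeine, 816 with arsenic plus copper, 1153 in the control, 899 at 5 µM arsenic and 700.0 at 15 µM arsenic. Acetaminophen, alone or with exosomes, stood lowest for MT-CO2. MT-CO3, the third core subunit, stood at 965 CPM with acetaminophen plus exosomes, 1156 with acetaminophen plus caffeine, 558 with acetaminophen, 975 with exosomes, 1178 with caffeine, 706 with arsenic plus copper, 1323 in the control, 361 at 5 µM arsenic and 271 at 15 µM arsenic. The libraries at 5 µM and 15 µM arsenic stood lowest for MT-CO3, below every other library. The ATP synthase subunits MT-ATP6 and MT-ATP8 belong to its membrane part. MT-ATP6 stood at 59.9 CPM with acetaminophen plus exosomes, 75.6 with acetaminophen plus caffeine, 33.8 with acetaminophen, 103 with exosomes, 99.8 with caffeine, 58.4 with arsenic plus copper, 76.4 in the control, 48.2 at 5 µM arsenic and 26.6 at 15 µM arsenic, and MT-ATP8 at 28.1 CPM with acetaminophen plus exosomes, 15.9 with acetaminophen plus caffeine, 6.33 with acetaminophen, 27.5 with exosomes, 16.8 with caffeine, 11.5 with arsenic plus copper, 21.3 in the control, 49 at 5 µM arsenic and 3.6 at 15 µM arsenic. MT-ATP8 was highest and MT-ATP6 below the control in the same library, that at 5 µM arsenic.

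The rRNAs MT-RNR1 (small subunit) and MT-RNR2 (large subunit) form the core of the mitochondrial ribosome. MT-RNR1 stood at 9700.2 CPM with acetaminophen plus exosomes, 5974 with acetaminophen plus caffeine, 1661 with acetaminophen, 6911 with exosomes, 3068 with caffeine, 1277 with arsenic plus copper, 4952 in the control, 3457 at 5 µM arsenic and 1920.3 at 15 µM arsenic. It was high with acetaminophen plus exosomes and low with arsenic plus copper, acetaminophen and 15 µM arsenic. MT-RNR2 stood at 11171 CPM with acetaminophen plus exosomes, 7649.8 with acetaminophen plus caffeine, 7559 with acetaminophen, 9965 with exosomes, 5362 with caffeine, 2861 with arsenic plus copper, 9162 in the control, 4504 at 5 µM arsenic and 3165 at 15 µM arsenic. All 3 arsenic libraries stood below the other 6 for MT-RNR2. The rRNAs had 6.3 counts per mRNA count with acetaminophen plus exosomes, 0.973 with arsenic plus copper and 2.52 in the control.

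Of the 22 tRNAs, 14 are encoded on the + strand and 8 on the − strand, and each had 135 to 15854 counts in the 9 libraries together. A tRNA count can come from mature tRNA or from an uncut precursor. MT-TS2 (serine) stood at 1489 CPM with acetaminophen plus exosomes, 293 with acetaminophen plus caffeine, 183 with acetaminophen, 486 with exosomes, 1151 with caffeine, 133 with arsenic plus copper, 466 in the control, 118 at 5 µM arsenic and 117 at 15 µM arsenic. It took the largest share of tRNA counts in most libraries, 53.2% with acetaminophen plus exosomes and 35.3% in the control, but 9.28% at 5 µM arsenic. MT-TM (methionine) stood at 161 CPM with acetaminophen plus exosomes, 133 with acetaminophen plus caffeine, 71.1 with acetaminophen, 89.5 with exosomes, 817 with caffeine, 50.5 with arsenic plus copper, 53.2 in the control, 244 at 5 µM arsenic and 58.2 at 15 µM arsenic. Caffeine stood highest for MT-TM, then 5 µM arsenic. MT-TV (valine) stood at 203 CPM with acetaminophen plus exosomes, 88.6 with acetaminophen plus caffeine, 70.4 with acetaminophen, 152 with exosomes, 358 with caffeine, 53.1 with arsenic plus copper, 120.0 in the control, 52.9 at 5 µM arsenic and 21.2 at 15 µM arsenic. MT-TK (lysine) stood at 108 CPM with acetaminophen plus exosomes, 49.3 with acetaminophen plus caffeine, 28.9 with acetaminophen, 60.8 with exosomes, 324 with caffeine, 19.7 with arsenic plus copper, 61 in the control, 14.9 at 5 µM arsenic and 8.63 at 15 µM arsenic. Both were highest with caffeine and lowest at 15 µM arsenic. MT-TG (glycine) stood at 72.7 CPM with acetaminophen plus exosomes, 16.6 with acetaminophen plus caffeine, 4.93 with acetaminophen, 26.6 with exosomes, 62.1 with caffeine, 5.95 with arsenic plus copper, 39.7 in the control, 2.13 at 5 µM arsenic and 5.03 at 15 µM arsenic. It was low in all 3 arsenic libraries and with acetaminophen.

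Other + strand tRNAs were rarer. MT-TL1 (leucine) stood at 34.4 CPM with acetaminophen plus exosomes, 13.6 with acetaminophen plus caffeine, 4.93 with acetaminophen, 11.7 with exosomes, 49.5 with caffeine, 6.69 with arsenic plus copper, 6.77 in the control, 17.9 at 5 µM arsenic and 6.83 at 15 µM arsenic. MT-TF (phenylalanine) stood at 21.7 CPM with acetaminophen plus exosomes, 12.3 with acetaminophen plus caffeine, 8.45 with acetaminophen, 21.6 with exosomes, 35 with caffeine, 11.5 with arsenic plus copper, 17.4 in the control, 15.4 at 5 µM arsenic and 4.67 at 15 µM arsenic. Both were highest with caffeine. MT-TI (isoleucine) stood at 8.93 CPM with acetaminophen plus exosomes, 10.2 with acetaminophen plus caffeine, 11.3 with acetaminophen, 8.98 with exosomes, 42 with caffeine, 3.72 with arsenic plus copper, 11.6 in the control, 49.5 at 5 µM arsenic and 7.19 at 15 µM arsenic. MT-TD (aspartate) stood at 16.6 CPM with acetaminophen plus exosomes, 5.48 with acetaminophen plus caffeine, 2.81 with acetaminophen, 5.39 with exosomes, 23.3 with caffeine, 2.97 with arsenic plus copper, 8.71 in the control, 24.3 at 5 µM arsenic and 1.08 at 15 µM arsenic. For MT-TI and MT-TD the library at 5 µM arsenic stood highest, with caffeine next. MT-TL2 (leucine) stood at 15.3 CPM with acetaminophen plus exosomes, 10.0 with acetaminophen plus caffeine, 7.74 with acetaminophen, 9.88 with exosomes, 40.1 with caffeine, 4.09 with arsenic plus copper, 8.71 in the control, 17.9 at 5 µM arsenic and 5.03 at 15 µM arsenic. MT-TH (histidine) stood at 5.1 CPM with acetaminophen plus exosomes, 5.1 with acetaminophen plus caffeine, 8.45 with acetaminophen, 6.58 with exosomes, 33.7 with caffeine, 0.372 with arsenic plus copper, 1.94 in the control, 5.54 at 5 µM arsenic and 0.719 at 15 µM arsenic. MT-TL2 and MT-TH were both highest with caffeine. MT-TH rests on 2 counts in the control and 1 with arsenic plus copper, below the floor. MT-TW (tryptophan) stood at 14 CPM with acetaminophen plus exosomes, 3.21 with acetaminophen plus caffeine, 3.52 with acetaminophen, 8.38 with exosomes, 14.5 with caffeine, 1.86 with arsenic plus copper, 4.84 in the control, 4.69 at 5 µM arsenic and 0.719 at 15 µM arsenic. MT-TR (arginine) stood at 8.93 CPM with acetaminophen plus exosomes, 3.21 with acetaminophen plus caffeine, 4.22 with acetaminophen, 11.7 with exosomes, 11.8 with caffeine, 4.09 with arsenic plus copper, 12.6 in the control, 9.38 at 5 µM arsenic and 1.44 at 15 µM arsenic. MT-TT (threonine) stood at 2.55 CPM with acetaminophen plus exosomes, 2.83 with acetaminophen plus caffeine, 1.41 with acetaminophen, 2.39 with exosomes, 12.1 with caffeine, 2.23 with arsenic plus copper, 2.9 in the control, 7.68 at 5 µM arsenic and 2.52 at 15 µM arsenic. Several of these values rest on fewer than 10 counts.

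On the − strand, MT-TN (asparagine) stood at 194 CPM with acetaminophen plus exosomes, 31.2 with acetaminophen plus caffeine, 291 with acetaminophen, 130.2 with exosomes, 163 with caffeine, 42 with arsenic plus copper, 126 in the control, 142 at 5 µM arsenic and 21.2 at 15 µM arsenic. MT-TN was the one tRNA of this strand highest with acetaminophen. It took 32.6% of tRNA counts there, against 9.51% in the control. MT-TC (cysteine) stood at 194 CPM with acetaminophen plus exosomes, 49.5 with acetaminophen plus caffeine, 55.6 with acetaminophen, 104 with exosomes, 254 with caffeine, 59.5 with arsenic plus copper, 193 in the control, 171 at 5 µM arsenic and 27.7 at 15 µM arsenic. MT-TE (glutamate) stood at 117 CPM with acetaminophen plus exosomes, 49.3 with acetaminophen plus caffeine, 57.7 with acetaminophen, 68.2 with exosomes, 304 with caffeine, 25.6 with arsenic plus copper, 106 in the control, 127 at 5 µM arsenic and 25.9 at 15 µM arsenic. Both were highest with caffeine. MT-TS1 (serine) stood at 24.2 CPM with acetaminophen plus exosomes, 14.2 with acetaminophen plus caffeine, 28.9 with acetaminophen, 26.3 with exosomes, 40.1 with caffeine, 28.6 with arsenic plus copper, 17.4 in the control, 121 at 5 µM arsenic and 11.1 at 15 µM arsenic. MT-TY (tyrosine) stood at 31.9 CPM with acetaminophen plus exosomes, 12.5 with acetaminophen plus caffeine, 15.5 with acetaminophen, 23 with exosomes, 59.1 with caffeine, 13.8 with arsenic plus copper, 15.5 in the control, 73.8 at 5 µM arsenic and 6.11 at 15 µM arsenic. The library at 5 µM arsenic stood highest for MT-TS1 and MT-TY. MT-TQ (glutamine) stood at 45.9 CPM with acetaminophen plus exosomes, 15.5 with acetaminophen plus caffeine, 25.3 with acetaminophen, 31.1 with exosomes, 39.9 with caffeine, 11.9 with arsenic plus copper, 29 in the control, 29 at 5 µM arsenic and 2.16 at 15 µM arsenic. MT-TP (proline) stood at 15.3 CPM with acetaminophen plus exosomes, 7.18 with acetaminophen plus caffeine, 3.52 with acetaminophen, 13.2 with exosomes, 26.4 with caffeine, 4.09 with arsenic plus copper, 15.5 in the control, 17.5 at 5 µM arsenic and 2.88 at 15 µM arsenic. MT-TA (alanine) stood at 15.3 CPM with acetaminophen plus exosomes, 1.7 with acetaminophen plus caffeine, 3.52 with acetaminophen, 6.58 with exosomes, 4.81 with caffeine, 4.83 with arsenic plus copper, 4.84 in the control, 8.53 at 5 µM arsenic and 2.88 at 15 µM arsenic. MT-TQ and MT-TP were lowest at 15 µM arsenic, and MT-TA with acetaminophen plus caffeine. The 8 tRNAs of the − strand together took 22.8% of tRNA counts with acetaminophen plus exosomes, 21.9% with acetaminophen plus caffeine, 53.9% with acetaminophen, 30.9% with exosomes, 23.1% with caffeine, 38.8% with arsenic plus copper, 38.3% in the control, 54.1% at 5 µM arsenic and 29.4% at 15 µM arsenic. The libraries with acetaminophen and at 5 µM arsenic are those with the highest snoRNA shares, 11.5% and 35.5% of gene counts, and the part of this in the strand share was not tested.

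**Figure D3:**
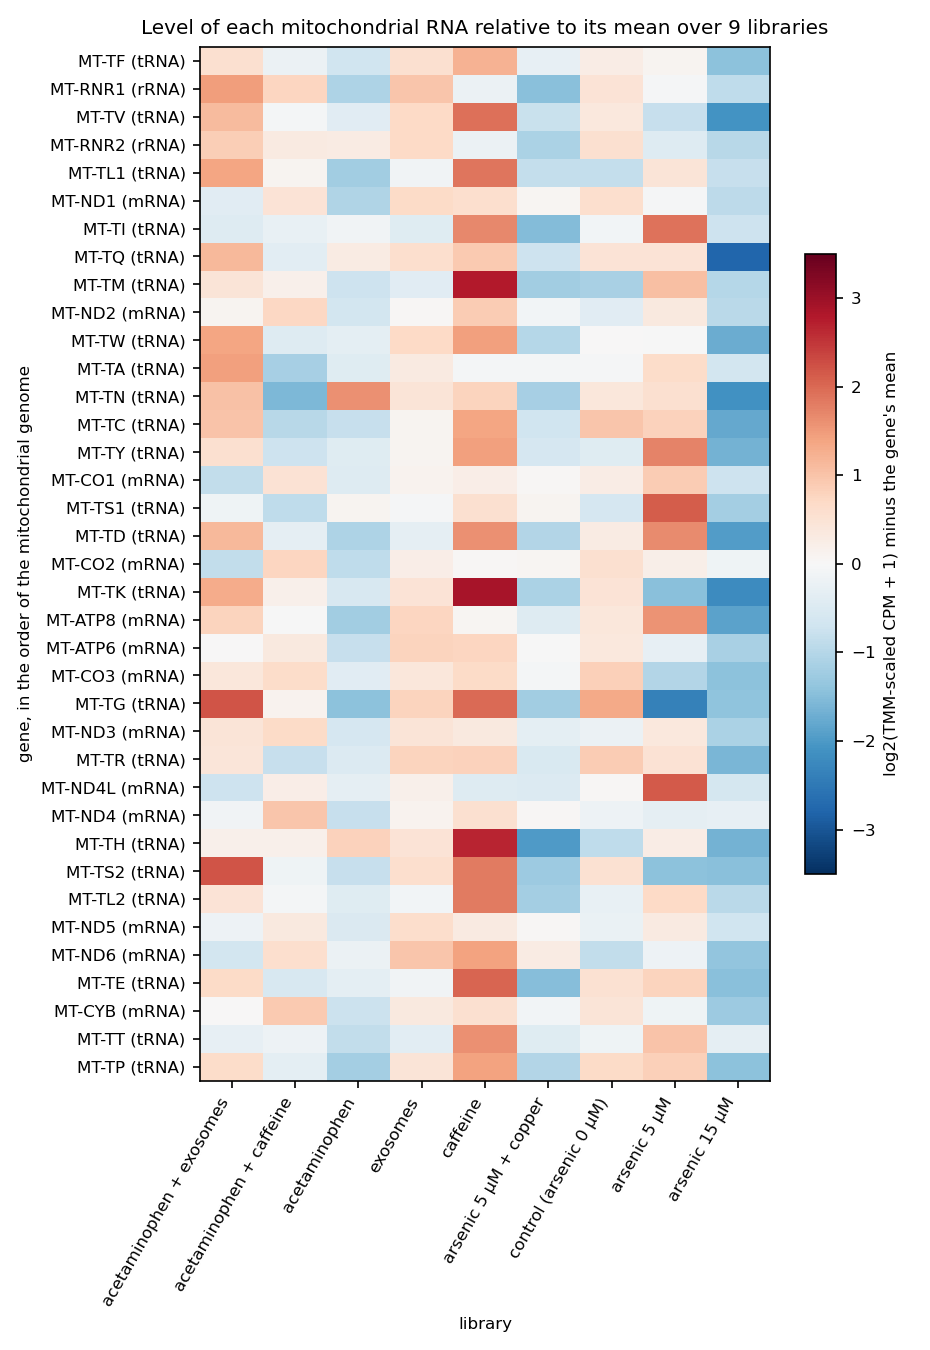
Heat map of log2(CPM + 1) of each of the 37 genes in each of the 9 libraries minus the gene's mean over the libraries, with genes in genome order from top to bottom. Most tRNAs are above their mean with caffeine and below it at 15 µM arsenic.

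Across all 9 libraries, an edgeR quasi-likelihood fit with terms for acetaminophen, exosomes, caffeine and arsenic called 0 of the 37 genes at an adjusted p under 0.05 in any term, beside 0.0219%, 0%, 0.0823% and 0.494% of all 18237 genes tested. Terms for acetaminophen with exosomes, acetaminophen with caffeine, 15 µM arsenic beyond arsenic, and copper beyond arsenic called 0 of the 37 as well, beside 0%, 0%, 1.09% and 0% of all genes. DESeq2 also called 0 of the 37 in each of the 8 terms. At an unadjusted p under 0.05 edgeR gave 0 of the 37 for acetaminophen, 2 for exosomes, 3 for caffeine, 4 for arsenic, 5 for acetaminophen with exosomes, 3 for acetaminophen with caffeine, 9 for 15 µM arsenic and 1 for copper, beside 5.34%, 0.62%, 7.31%, 9.17%, 0.477%, 1.09%, 10.1% and 2.35% of all genes in the same order. The counts for caffeine, arsenic and copper lay near that share. The arsenic libraries share 1 yes or no arsenic term although they differ in dose and copper. With 1 library per condition, the spread in this fit is the departure from additivity and the difference among the arsenic libraries. Its p-values therefore do not measure variation between cultures. Within a term, the lowest adjusted p among the 37 was that of MT-TM for caffeine, 2.76 ± 0.91 (adjusted p = 0.359), of MT-TG for arsenic, -2.55 ± 0.77 (adjusted p = 0.14), and of MT-TQ for 15 µM arsenic beyond arsenic, -3.22 ± 1.05 (adjusted p = 0.111), as log2 fold change ± standard error. Without the library at 5 µM arsenic, MT-TM was called for caffeine, beside 1.23% of all genes, and MT-TE, MT-TG, MT-TH, MT-TK and MT-TN for arsenic, beside 4.31%. Without the library with arsenic plus copper, MT-ATP8, MT-TD, MT-TQ, MT-TS1 and MT-TY were called at 15 µM, beside 4.3% of all genes, so more of all genes were called in these settings too. MT-TG was also called for arsenic by total gene counts, beside 1.18%, and with no count filter, beside 0.727%. Each comparison below sets 2 libraries side by side. Ratios of scaled CPM are given with a 95% exact binomial interval for counting error, and a gene is called apart where the ratio reaches 2 either way and the interval excludes 1. No p-value is given for these, and several pairs share the control or another library.

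Acetaminophen alone gave a summed mRNA level of 0.512 times (interval 0.492 to 0.533) the control. Among the 13 mRNAs 6 were apart lower and 0 higher, against 12.1% and 13% of all genes tested. MT-ATP8 stood at 0.298 times (interval 0.121 to 0.672) the control, MT-ND1 at 0.314 times (interval 0.218 to 0.445) and MT-CO2 at 0.362 times (interval 0.327 to 0.40). MT-CO3, MT-CYB and MT-ATP6 were the other 3. Among the rRNAs, MT-RNR1 stood at 0.335 times (interval 0.319 to 0.352) the control and MT-RNR2 at 0.825 times (interval 0.803 to 0.848). The ratio of MT-RNR1 to MT-RNR2 was lowest in this library. Of the 22 tRNAs 6 were lower and 1 higher, with MT-TG lowest at 0.124 times (interval 0.047 to 0.28) and MT-TN the one higher, at 2.32 times (interval 1.9 to 2.84). The median log2 ratio was -0.70 for the mRNAs and -0.61 for the tRNAs, beside -0.20 for all genes.

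With exosomes in both cultures, acetaminophen went with fewer mRNA and more tRNA counts. The summed mRNA level was 0.651 times (interval 0.625 to 0.679) that with exosomes alone, the rRNA level 1.24 times (interval 1.22 to 1.26) and the tRNA level 2.15 times (interval 2.04 to 2.26). Of the 13 mRNAs 2 were apart lower, MT-CO2 at 0.465 times (interval 0.414 to 0.521) and MT-ND1 at 0.468 times (interval 0.331 to 0.648), and 0 higher, against 5.14% and 5.22% of all genes. With DESeq2 size factors or total gene counts 0 mRNAs were apart, beside 9.97% and 10.1% of all genes. The tRNAs had 5 of 22 apart higher and 0 lower. These were MT-TD, MT-TS2, MT-TL1, MT-TG and MT-TA, with MT-TS2 at 3.07 times (interval 2.84 to 3.31). MT-TS2 made up 53.2% of tRNA counts with both agents and 37.2% with exosomes. No rRNA was apart. This library was the shallowest.

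With caffeine in both cultures, acetaminophen went with lower levels of every tRNA and with no mRNA apart. All 22 tRNAs were apart lower, against 13% of all genes tested, and 0 were higher, against 12.6%. Their ratios lay between MT-TK at 0.152 times (interval 0.134 to 0.173) and MT-TQ at 0.389 times (interval 0.301 to 0.496), and the summed tRNA level was 0.214 times (interval 0.207 to 0.221) that with caffeine alone. None of the 13 mRNAs was apart in either direction, and their sum was 1.21 times (interval 1.2 to 1.23). The rRNA sum was 1.62 times (interval 1.6 to 1.63), with neither gene apart. The tRNAs made 12.6 counts per 100 mRNA counts with acetaminophen plus caffeine and 71.1 with caffeine alone. In the fit, the term for acetaminophen with caffeine was negative for 22 of 22 tRNAs, with a median log2 value of -2.06 beside -0.01 for all genes, and none passed the test. MT-TH, MT-TN and MT-TM had the lowest, -3.45 ± 1.67 (adjusted p = 1), -3.27 ± 1.38 (adjusted p = 1) and -3.25 ± 1.42 (adjusted p = 1). The caffeine culture is the one with most tRNA counts, and this single library enters the ratio of every gene. The fitted term takes its acetaminophen effect from the pairs without other treatment and with exosomes. Its tRNA median was -1.28 without the exosomes library and -1.15 without that with acetaminophen plus exosomes.

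**Figure D4:**
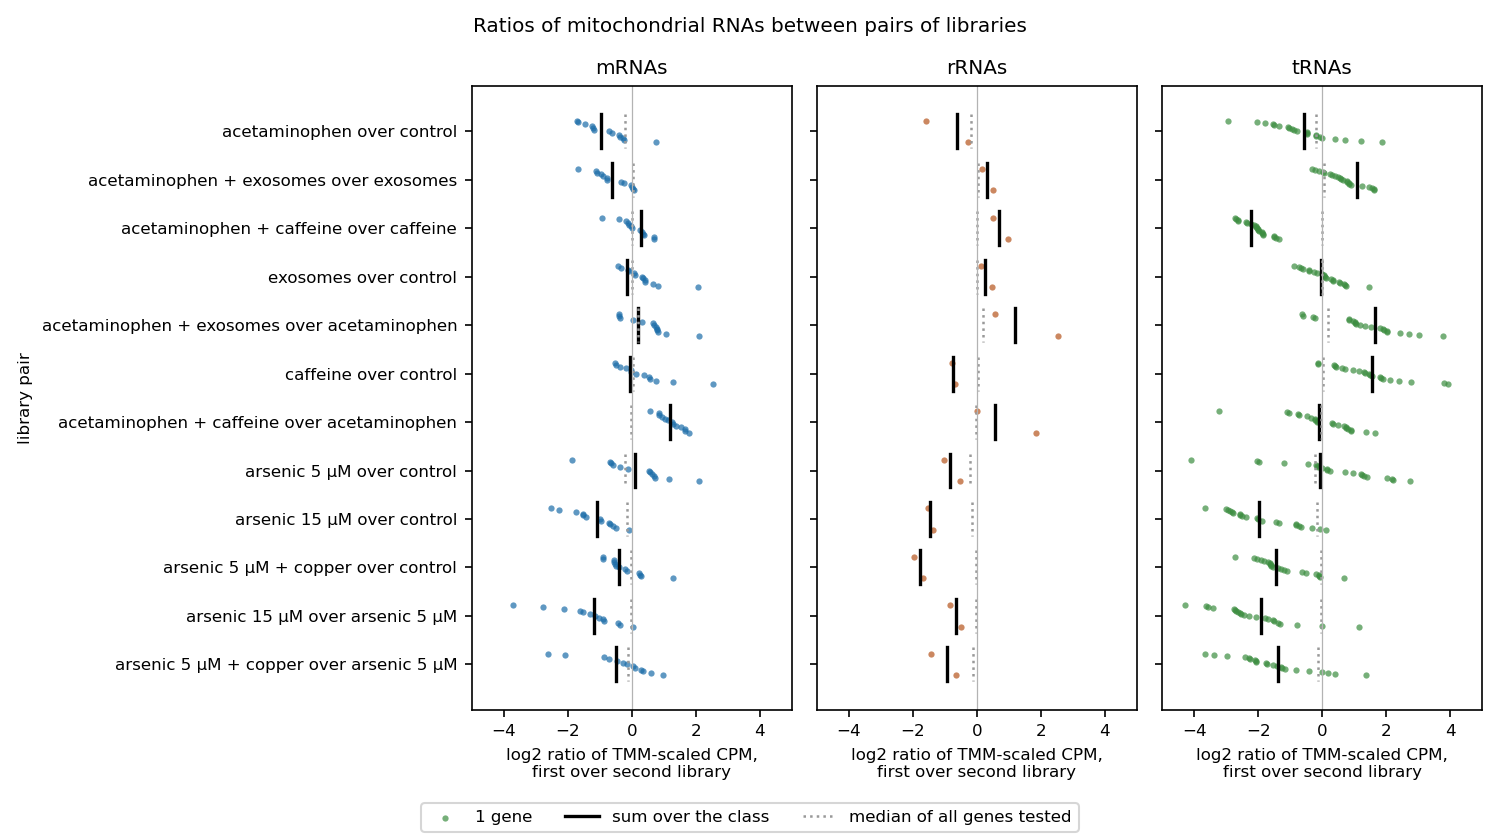
Log2 ratio of scaled CPM (x axis, 1 panel each for mRNAs, rRNAs and tRNAs) of every member in the 12 pairs of libraries compared (y axis). Points are genes, solid bars the class sums and dotted bars the median of all genes tested. All 22 tRNAs lie below -1 for acetaminophen plus caffeine over caffeine, while 14 of 22 lie apart above the control with caffeine alone.

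With exosomes alone no mitochondrial gene was apart from the control. Of the 13 mRNAs, 2 rRNAs and 22 tRNAs 0 were higher or lower, against 3.57% and 1.44% of all genes, so these counts lay near the background. The summed levels were 0.908 times (interval 0.881 to 0.935) the control for mRNAs, 1.2 times (interval 1.17 to 1.22) for rRNAs and 0.986 times (interval 0.928 to 1.05) for tRNAs. With DESeq2 size factors 1 tRNA was apart lower, beside 2.57% of all genes, and by total gene counts 1 mRNA was apart higher, beside 3.98%. On top of acetaminophen, exosomes went with a higher summed tRNA level. Of the 22 tRNAs 14 were apart higher than with acetaminophen alone and 0 lower, against 10.2% and 8.89% of all genes. MT-TG stood at 14.8 times (interval 6.72 to 38.3) the level with acetaminophen, MT-TS2 at 8.14 times (interval 7.11 to 9.35) and MT-TL1 at 6.99 times (interval 2.97 to 19). MT-RNR1 stood at 5.84 times (interval 5.58 to 6.12) and MT-RNR2 at 1.48 times (interval 1.44 to 1.52). Of the 13 mRNAs 2 were higher, MT-ATP8 at 4.43 times (interval 1.96 to 10.9) and MT-ND3 at 2.11 times (interval 1.18 to 3.81). This number of mRNAs lay near the 10.2% of all genes. For 18 tRNAs the ratio was over 1 and for 4 under 1, MT-TN at 0.665 times (interval 0.549 to 0.803), MT-TS1, MT-TI and MT-TH. The summed tRNA level was 3.14 times (interval 2.93 to 3.36) that with acetaminophen and the mRNA level 1.15 times (interval 1.1 to 1.21). In the fit, the term for acetaminophen with exosomes was positive for 22 of 22 tRNAs, with a median of 1.90 beside -0.16 for all genes, and none passed the test. The term takes its acetaminophen effect from the pairs without other treatment and with caffeine, so it is not independent of the term with caffeine. Its tRNA median was 1.19 without the caffeine library and 1.21 without that with acetaminophen plus caffeine.

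Caffeine went with a higher summed tRNA level and a lower summed rRNA level, with no rRNA apart. Of the 22 tRNAs 14 were apart higher than the control and 0 lower, against 11.6% and 8.63% of all genes. MT-TM stood at 15.4 times (interval 11.8 to 20.4) the control, MT-TK at 5.32 times (interval 4.14 to 6.94) and MT-TS2 at 2.47 times (interval 2.25 to 2.71). MT-TM made up 21.1% of tRNA counts with caffeine and 4.02% in the control. MT-TH had 17.4 times (interval 4.77 to 144) and MT-ND6 8.73 times (interval 1.52 to 349.5), over a control with 2 counts of MT-TH and 1 of MT-ND6. Of the 13 mRNAs 2 were apart higher, MT-ND6 and MT-ND2, with MT-ND2 at 2.47 times (interval 1.83 to 3.39). This number of mRNAs lay near the 11.6% of all genes. The summed levels were 0.969 times (interval 0.943 to 0.996) the control for mRNAs, 0.597 times (interval 0.587 to 0.608) for rRNAs and 2.92 times (interval 2.77 to 3.09) for tRNAs. The rRNA sum so stood below the control, the tRNA sum above it and the mRNA sum close to it. The fitted caffeine term was 0.46 ± 0.97 (adjusted p = 0.926) for MT-RNR1 and -0.38 ± 0.92 (adjusted p = 0.935) for MT-RNR2, on opposite sides of 0. Added to acetaminophen, caffeine went with higher summed mRNA and rRNA levels instead. Here 9 of the 13 mRNAs were apart higher than with acetaminophen alone and 0 lower, against 18.8% and 15% of all genes. MT-ND4 stood at 3.44 times (interval 3.05 to 3.88), MT-CYB at 3.21 times (interval 2.76 to 3.76) and MT-CO2 at 3.14 times (interval 2.89 to 3.42). Of the tRNAs 2 were higher, MT-TG and MT-TL1, and 2 lower, MT-TN at 0.107 times (interval 0.0888 to 0.128) and MT-TS1 at 0.491 times (interval 0.331 to 0.737). MT-RNR1 was apart higher, at 3.6 times (interval 3.45 to 3.75), and MT-RNR2 was not, at 1.01 times (interval 0.991 to 1.03). The mRNA sum was 2.3 times (interval 2.22 to 2.37) that with acetaminophen, the rRNA sum 1.48 times (interval 1.45 to 1.51) and the tRNA sum 0.928 times (interval 0.871 to 0.988).

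At 5 µM arsenic, 8 of the 37 genes (21.6%) were apart higher than the control and 6 (16.2%) lower, against 16.4% and 15% of all genes, so these counts lay near the background. Of the 13 mRNAs 2 were apart higher than the control, MT-ND4L at 4.28 times (interval 3.68 to 5.0) and MT-ATP8 at 2.3 times (interval 1.45 to 3.82), and 1 lower, MT-CO3 at 0.273 times (interval 0.25 to 0.298). Without TMM, by total gene counts, 1 was higher and 5 lower, against 7.07% and 26.9% of all genes. The tRNAs had 6 higher, led by MT-TS1 at 6.93 times (interval 4.31 to 11.9), MT-TY at 4.77 times (interval 2.85 to 8.52) and MT-TM at 4.58 times (interval 3.47 to 6.16), and 4 lower, MT-TG at 0.0537 times (interval 0.0166 to 0.136), MT-TK, MT-TS2 and MT-TV. MT-TG rests on 5 counts in the arsenic library. The rRNA sum was 0.564 times (interval 0.552 to 0.576) the control, the tRNA sum 0.963 times (interval 0.903 to 1.03) and the mRNA sum 1.07 times (interval 1.04 to 1.1), which by total gene counts turned below 1. By total gene counts the rRNA sum was 0.331 times (interval 0.324 to 0.339) and the tRNA sum 0.566 times (interval 0.53 to 0.603), with 4 tRNAs apart higher and 5 lower. Small nucleolar RNAs took 35.5% of gene counts in this library and 4.86% in the control, and their part in these ratios was not tested.

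At 15 µM arsenic, 13 of 13 mRNAs, 2 of 2 rRNAs and 21 of 22 tRNAs had ratios under 1 to the control. Of the 22 tRNAs 14 were apart lower and 0 higher, against 14.4% and 16.5% of all genes. MT-TQ stood at 0.0743 times (interval 0.0253 to 0.181) the control, MT-TK at 0.142 times (interval 0.0846 to 0.23) and MT-TC at 0.144 times (interval 0.109 to 0.188). The mRNAs had 5 of 13 lower, with MT-ATP8 at 0.169 times (interval 0.0714 to 0.372), MT-CO3 at 0.205 times (interval 0.187 to 0.224), MT-CYB at 0.301 times (interval 0.253 to 0.358), and MT-ND1 and MT-ATP6 as the others. Subunits of complexes I, III and IV and of ATP synthase were thus among them. Both rRNAs were lower, MT-RNR1 at 0.388 times (interval 0.373 to 0.403) and MT-RNR2 at 0.345 times (interval 0.336 to 0.356). The summed levels were 0.472 times (interval 0.456 to 0.489) the control for mRNAs, 0.36 times (interval 0.352 to 0.369) for rRNAs and 0.257 times (interval 0.237 to 0.28) for tRNAs. The tRNAs were the class furthest below the control, and the mRNAs the least far. The median log2 ratio was -0.99 for the mRNAs and -2.01 for the tRNAs, beside -0.16 for all genes. Between the doses, 19 of 22 tRNAs and 7 of 13 mRNAs were apart lower at 15 µM than at 5 µM and 0 higher, against 17.5% and 19.6% of all genes. The rRNA sum was 0.639 times (interval 0.625 to 0.653) that at 5 µM. By total gene counts 3 mRNAs were lower and 0 higher, and 14 tRNAs lower and 1 higher, against 9.95% and 29.1% of all genes, and the rRNA sum was 0.933 times (interval 0.912 to 0.953). This pair holds the 5 µM library with 35.5% snoRNA counts, whose part in it was not tested. MT-ND4L stood at 0.147 times (interval 0.13 to 0.166) and MT-TS1 at 0.0924 times (interval 0.0616 to 0.134) the level at 5 µM. In the fit, the term for 15 µM beyond arsenic was negative for 13 of 13 mRNAs and 21 of 22 tRNAs, with medians of -1.11 and -1.71, beside 0.00 for all genes, and none passed the test.

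With 5 µM copper added to 5 µM arsenic, rRNAs and tRNAs were below the control while no mRNA was apart. Of the 22 tRNAs 12 were apart lower and 0 higher, against 7.11% and 9.22% of all genes. MT-TG stood at 0.15 times (interval 0.0785 to 0.273) the control and MT-TE at 0.241 times (interval 0.176 to 0.329). MT-RNR1 stood at 0.258 times (interval 0.247 to 0.269) and MT-RNR2 at 0.312 times (interval 0.303 to 0.322). The mRNA sum was 0.759 times (interval 0.735 to 0.784) the control. With DESeq2 size factors 2 mRNAs were apart lower, beside 8.62% of all genes. Against 5 µM arsenic without copper, 15 tRNAs were lower and 0 higher, and 2 mRNAs were lower and 0 higher, against 13.7% and 16.5% of all genes. The number of mRNAs lower lay near the 13.7% of all genes. Those lower were MT-ND4L at 0.161 times (interval 0.143 to 0.181) and MT-ATP8 at 0.235 times (interval 0.153 to 0.352), the pair that stood high at 5 µM arsenic alone. The mRNA sum was 0.709 times (interval 0.691 to 0.726), and by total gene counts it turned above 1. MT-RNR1 was the rRNA apart, at 0.369 times (interval 0.355 to 0.385). By total gene counts 0 rRNAs were apart, 2 tRNAs were higher and 10 lower, against 29.2% and 5% of all genes. This pair again holds the library with 35.5% snoRNA counts.

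Ratios of counts within one library do not depend on scaling. MT-ND4L and MT-ND4 are translated from 1 shared mRNA, and their count ratio was 0.314 with acetaminophen plus exosomes, 0.292 with acetaminophen plus caffeine, 0.679 with acetaminophen, 0.494 with exosomes, 0.238 with caffeine, 0.334 with arsenic plus copper, 0.571 in the control, 2.64 at 5 µM arsenic and 0.381 at 15 µM arsenic. At 5 µM arsenic the ratio had a 95% interval of 2.41 to 2.88, above the interval of every other library. MT-ATP8 and MT-ATP6 likewise share an mRNA, and their ratio was 0.468 with acetaminophen plus exosomes, 0.21 with acetaminophen plus caffeine, 0.188 with acetaminophen, 0.267 with exosomes, 0.168 with caffeine, 0.198 with arsenic plus copper, 0.279 in the control, 1.02 at 5 µM arsenic and 0.135 at 15 µM arsenic. The interval at 5 µM arsenic, 0.778 to 1.33, overlaps only that with acetaminophen plus exosomes, 0.269 to 0.792. Both shared mRNAs had relatively more counts on their 5′ gene in that library. Ambiguous reads took 10.15% of reads there and 2.29% to 9.25% in the others, 3.36% in the control. Small nucleolar RNAs took 35.5% of its gene counts. The part of either in these ratios was not tested. The ratio of MT-CO3 to MT-CO1 was 1.06 with acetaminophen plus exosomes, 0.498 with acetaminophen plus caffeine, 0.463 with acetaminophen, 0.543 with exosomes, 0.608 with caffeine, 0.419 with arsenic plus copper, 0.673 in the control, 0.118 at 5 µM arsenic and 0.273 at 15 µM arsenic. It was lowest at 5 µM arsenic. The ratio of MT-CO2 to MT-CO1 was 0.467 with acetaminophen plus exosomes, 0.564 with acetaminophen plus caffeine, 0.346 with acetaminophen, 0.511 with exosomes, 0.415 with caffeine, 0.484 with arsenic plus copper, 0.587 in the control, 0.294 at 5 µM arsenic and 0.706 at 15 µM arsenic. Here too 5 µM arsenic stood lowest, while 15 µM arsenic stood highest. The ratio of MT-RNR1 to MT-RNR2 was 0.868 with acetaminophen plus exosomes, 0.781 with acetaminophen plus caffeine, 0.22 with acetaminophen, 0.694 with exosomes, 0.572 with caffeine, 0.446 with arsenic plus copper, 0.54 in the control, 0.767 at 5 µM arsenic and 0.607 at 15 µM arsenic. It was lowest with acetaminophen and highest with acetaminophen plus exosomes. The tRNAs had 84.5 counts per 100 mRNA counts with acetaminophen plus exosomes, 12.6 with acetaminophen plus caffeine, 31.1 with acetaminophen, 25.6 with exosomes, 71.1 with caffeine, 11.5 with arsenic plus copper, 23.6 in the control, 21.2 at 5 µM arsenic and 12.9 at 15 µM arsenic.

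**Figure D5:**
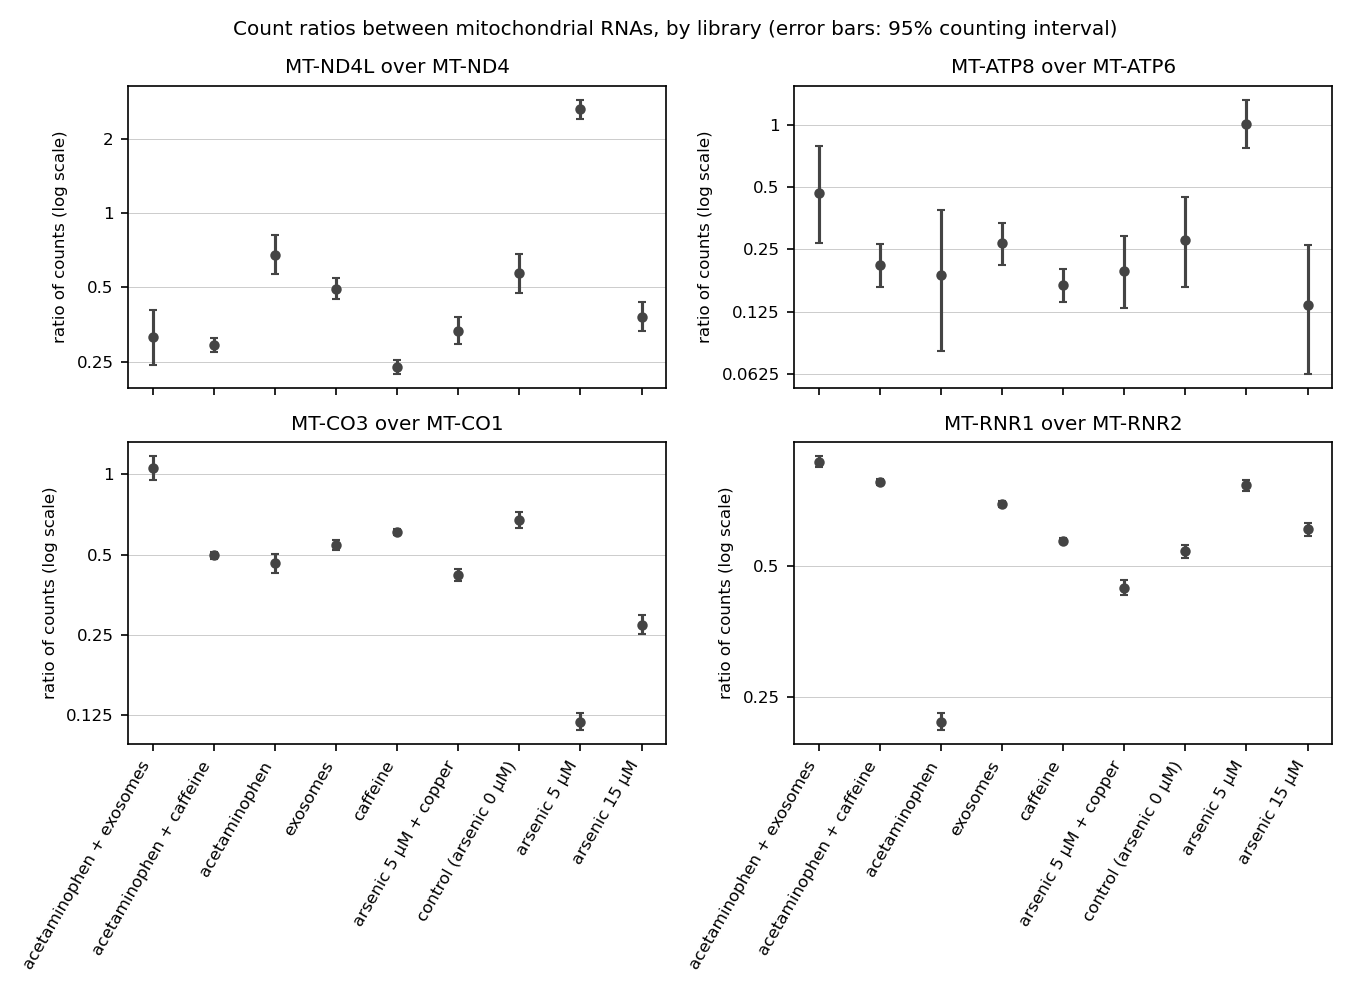
Count ratios within each of the 9 libraries (y axis, log scale, with 95% exact intervals) for MT-ND4L over MT-ND4, MT-ATP8 over MT-ATP6, MT-CO3 over MT-CO1 and MT-RNR1 over MT-RNR2. MT-ND4L over MT-ND4 is 2.64 at 5 µM arsenic and at most 0.679 in the other libraries.

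The nuclear genes that work with these transcripts were read from 6 lists. In the arsenic term none of the 76 nuclear respiratory chain subunits passed the test, 5 coefficients were positive and 71 negative, and the median log2 value was -0.69 beside 0.07 for all genes. ATP5MC1, the membrane ring subunit of ATP synthase, had -1.97 ± 0.65 (adjusted p = 0.207), and NDUFA13 of complex I had 1.68 ± 1.01 (adjusted p = 0.667). The mitochondrial mRNAs themselves had a median of 0.07 in this term, which joins unlike libraries. Their median log2 ratio to the control was 0.53 at 5 µM arsenic, -0.99 at 15 µM arsenic and -0.39 with arsenic plus copper. Their median in the term was -0.47 without the 5 µM library, 0.29 without 15 µM and 0.08 without arsenic plus copper. Of 74 mitochondrial ribosomal proteins tested, 0 passed, 18 coefficients were positive and 56 negative, with a median of -0.52. In the acetaminophen term the medians were -0.52 for ribosomal proteins and -0.31 for respiratory subunits, beside -0.04 for all genes, with none called. In the caffeine term they were -0.43 and -0.31, beside 0.12, and the mitochondrial mRNAs had 0.77. The median log2 ratio of these mRNAs was 0.13 for caffeine over control and 1.26 for acetaminophen plus caffeine over acetaminophen. With 1 library left out, their median in the term ranged from 0.38 (without acetaminophen) to 1.22 (without the control). Of 34 genes for RNA processing and decay, 13 translation factors and 8 regulators of biogenesis, none was called in any of the 8 terms. The share of all genes called was at most 1.09% in a term. Among 20 genes for transcription and DNA maintenance, 1 was called in 1 term, the one where 1.09% of all genes were called. This was the only call in the 6 lists over the 8 terms. MTERF3, a repressor of mitochondrial transcription in mice, had -7.40 ± 2.12 (adjusted p = 0.0459) in the term for 15 µM beyond arsenic by edgeR. It had 9.68 CPM in the control, 8.96 CPM at 5 µM arsenic and 0 counts at 15 µM arsenic. Its level at 15 µM was at least 8.3-fold lower than at 5 µM, against the floor of 3 counts per library, so its fitted value is no measure of size. The call was lost under 9 of 13 other settings, with adjusted p of 0.0089 to 0.294 over all 13.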

How the data were processed

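RNA was isolated with a mirVana kit, depleted of rRNA with RiboMinus and made into Ion Total RNA-Seq libraries, per the labels' protocols. The authors deposited raw counts per gene identifier, 1 file per library, made with TopHat2 2.0.13 and HTSeq 0.6.1 on GRCh37, per the submitters' processing notes. The sources used here give neither the annotation release nor the strand setting. The 5 summary lines of each file, 42.3% to 70.3% of reads, stayed out of library sizes. Of the 63677 identifiers 40044 matched a symbol, including all 37 members. The rule for the members uses no measured value, but this set of genes and the lists were chosen with earlier results of these data known.

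Counts were tested with edgeR 4.0.16 in R 4.3.3 (quasi-likelihood, TMM, filter of 1 CPM or more in 2 or more libraries, Benjamini-Hochberg over all 18237 genes), with additive terms in all 9 libraries and 4 residual degrees of freedom, or 3 with an extra term. DESeq2 1.42.0 was an alternative. The standard error printed is the absolute log2 fold change over the square root of F. Pairs of libraries were compared with exact conditional binomial intervals and 0.5 prior counts in the ratio that decides a call, and shares with an exact permutation test (scipy 1.17.1). Intervals and floors cover counting error only, since PCR copies are not independent molecules. Named were all 37 members with every value, the 3 nuclear copies with most counts, and from the lists called genes and up to 2 of the highest or lowest by log2 fold change at a mean of at least 5 CPM. Copies were matched by name, and by BLAST+ 2.17.0 and 50-base windows in GENCODE 29 transcripts (GRCh38), which also gave the sequences and coordinates; GRCh37 coordinates are not used here. The scripts were tested on simulated data.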

Additional observations from a re-analysis of the deposited data

Results flagged for a closer look

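The acetaminophen ratio of a class sum, taken without other treatment, with exosomes in both cultures and with caffeine in both cultures, lay on opposite sides of 1 in 6 of the comparisons between these backgrounds. Each rests on single libraries, and none of these differences was tested over replicates. For the mRNAs the ratio was 1.21 times (interval 1.2 to 1.23) with caffeine, 0.651 times (interval 0.625 to 0.679) with exosomes and 0.512 times (interval 0.492 to 0.533) without other treatment, so that the log2 ratio with caffeine was 0.90 higher than with exosomes and 1.24 higher than without. For the rRNAs it was 1.62 times (interval 1.6 to 1.63) with caffeine, 1.24 times (interval 1.22 to 1.26) with exosomes and 0.653 times (interval 0.638 to 0.669) without other treatment, on the log2 scale 1.31 and 0.92 higher than without. For the tRNAs it was 0.214 times (interval 0.207 to 0.221) with caffeine, 2.15 times (interval 2.04 to 2.26) with exosomes and 0.675 times (interval 0.625 to 0.729) without other treatment. The log2 ratio of the tRNAs with exosomes was 1.67 higher than without, and that with caffeine minus that with exosomes was -3.32. The acetaminophen library had 11.5% snoRNA counts and the control 4.86%, and the part of this was not tested.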

How the results depend on the processing

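The arsenic differences in class shares kept their direction in all 30 alternatives, and none passed 0.05 after adjustment. With 1 arsenic library left out the exact test cannot go below 0.0714, and with 1 other left out it cannot go below 0.0357 before adjustment, so these settings say nothing on stability. Counts of the 37 genes called stayed at 0 in 103 of 109 alternatives. The caffeine term called 1 in the 6 libraries without arsenic, beside 1.68% of all genes, and 0 to 1 with 1 library left out. The arsenic term called 1 by total gene counts, beside 1.18%, 1 with no count filter, beside 0.727%, and 0 to 5 with 1 library left out, the 5 beside 4.31%. The term for 15 µM arsenic called 0 to 5 with 1 library left out, the 5 beside 4.3%. In what follows, the share of all genes apart by the same rule is in parentheses. At a ratio of at least 1.5, mRNAs apart numbered 6 for acetaminophen plus exosomes over exosomes (18.2%), 3 for acetaminophen plus caffeine over caffeine (39.8%), 2 for exosomes over control (11.4%), 8 for acetaminophen plus exosomes over acetaminophen (27.1%), 8 for 5 µM arsenic (38.2%), 9 for 15 µM arsenic (38.5%) and 2 for arsenic plus copper (24.8%) over control, and 5 for arsenic plus copper over 5 µM arsenic (40.6%). With DESeq2 size factors they numbered 0 for acetaminophen plus exosomes over exosomes (9.97%) and 2 for arsenic plus copper over control (15.6%). By total gene counts they numbered 0 for acetaminophen plus exosomes over exosomes (10.1%), 1 for acetaminophen plus caffeine over caffeine (25.9%), 1 for exosomes (5.34%) and 6 for 5 µM arsenic (34%) over control, 3 for 15 µM over 5 µM arsenic (39.1%) and 4 for arsenic plus copper over 5 µM arsenic (34.2%). The log2 ratio of the mRNA sum then turned to -0.67 for 5 µM arsenic over control and to 0.18 for arsenic plus copper over 5 µM arsenic. Total gene counts moved the median of all genes by -0.77 to 0.68 (log2) over the 12 pairs, and DESeq2 size factors by -0.18 to 0.15. With 1 library left out, the exosomes term of MT-TS2 ranged from -0.12 (without acetaminophen plus exosomes) to 3.19, and the 15 µM term of MT-TI from -2.77 to 0.96 (without 5 µM arsenic); the cause was not tested. No paired analysis was possible because each condition has 1 library and the labels give no replicate numbers. Depth limits the rarer members: 14 of the 37 had fewer than 10 counts in at least 1 library, and 6 of them, MT-ND6, MT-TA, MT-TT, MT-TW, MT-TD and MT-TH, in 4 or more.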

Other observations

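The nuclear copy MTND2P28 did not keep a fixed proportion to MT-ND2. Of the counts of both, the copy took 14% with acetaminophen plus exosomes, 14.9 with acetaminophen plus caffeine, 30.3 with acetaminophen, 15.5 with exosomes, 35.6 with caffeine, 13 with arsenic plus copper, 14.8 in the control, 40.7 at 5 µM arsenic and 16.2 at 15 µM arsenic. The 95% exact interval at 5 µM arsenic, 35 to 46.5%, and that with caffeine, 33.1 to 38.1%, lay above that of acetaminophen plus caffeine, 12.2 to 18%. Of the counts of MTATP6P1 and MT-ATP6, the copy took 13% with acetaminophen plus exosomes, 29.7 with acetaminophen plus caffeine, 4.0 with acetaminophen, 15.3 with exosomes, 18.9 with caffeine, 28 with arsenic plus copper, 25.5 in the control, 10.3 at 5 µM arsenic and 31.5 at 15 µM arsenic. The 2 copies were thus high in different libraries. Whether these reads come from the nuclear copies or from mitochondrial RNA placed on them was not tested.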
